A study of Homo sapiens with 3 samples.

Results

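The transcriptome of HaCaT cells exposed to S1650b particles was compared with that of unexposed HaCaT cells by RNA sequencing, with 1 library of each. HaCaT is an immortalised human keratinocyte line, labelled wild type (WT), maintained in DMEM with 10% serum and antibiotics and cultured overnight before the exposure. The S1650b culture then received 50 µg/mL of S1650b for 24 h in DMEM without serum, and a further culture received carbon black (CB) at 25 µg/mL in the same way. The control culture, also labelled 24 h, was exposed to nothing, and whether it too was changed to medium without serum is not stated. The series title names particulate matter, and the labels do not say further what S1650b is. A standard reference material of diesel exhaust particles bears a similar code, and whether it is this material is not stated. The genes described are those with a level of at least 1 CPM (counts scaled to library size) in the S1650b or the control library: 14545 of the 58735 genes in the deposited table, 12163 of them protein-coding. With 1 library a group no difference has a replicate check, and a treatment effect cannot be told apart from variation between cultures or libraries. Folds are ratios of scaled CPM, and the 95% intervals in square brackets cover counting error only. The labels mention no molecular identifiers, so copies made by PCR were counted as if they were separate molecules, and even counting error may be understated. Higher and lower genes are those that differed by 2-fold or more, or by 1.5-fold or more for members of a gene list, and whose interval did not reach 1. Pairs of counts are given for the control first and S1650b second.

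Cells meet particles and the organic chemicals on them with well-described defence systems. The aryl hydrocarbon receptor (AHR) is a ligand-activated transcription factor that binds polycyclic aromatic hydrocarbons, pairs with ARNT and switches on P450 enzymes such as CYP1A1 and CYP1B1. The transcription factor NRF2 (gene NFE2L2) is released from its inhibitor KEAP1 by electrophiles and oxidants and raises genes for glutathione synthesis, thioredoxin reduction and NADPH supply. Keratinocytes divide in the basal layer of the epidermis, where they express KRT5 and KRT14, and leave the cell cycle as they differentiate. Genes of mitosis are commonly driven by promoters that hold a CHR element, with TTTGAA at its core, beside CCAAT boxes bound by NF-Y.

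The libraries were of like depth, with totals of 20658247 (control), 20946139 (CB) and 20417744 (S1650b) counts. Genes with at least 1 count numbered 23790 in the control and 25475 in S1650b. The keratinocyte label was met by 10 of 10 marker genes with counts in both libraries, although their summed level was 16003 CPM (control), 14595 (CB) and 7888 (S1650b), a difference carried by KRT5 and KRT14. Markers of other cell types were counted at low levels. Fibroblast markers summed to 93.4, 30.6 and 13.2 CPM in the same order, in the control mostly from DCN and COL3A1, while COL1A2, PDGFRA and THY1 had 0 counts there and VIM, the vimentin gene, had 4 counts in the control and 8 in S1650b. Immune markers summed to 11, 2.98 and 2.86 CPM, mostly from CD74 (178, 35 and 37 counts), with PTPRC at 0 counts in the control. Endothelial markers summed to 58.4, 32.5 and 48.0 CPM, mostly from CDH5 (1013, 503 and 920 counts). CLDN5 and ERG had 0 counts in the control and in S1650b. Exons of other genes overlapped 85.0% of SRXN1, 46.6% of TYMS, 43.2% of CDK4, 36.6% of TUBA1B, 35.8% of TUBB3, 34.8% of PSMB10, 32.5% of IFITM1 and 32.3% of AHR, the genes named here with the largest overlaps. No source used here says if strand was used in counting, and reads of overlapping and antisense genes cannot be told apart.

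Promoter sequences of genes from the leading groups are shown because they carry the short motifs named above. Each window runs from 70 bases before the annotated start to 10 bases after it, 5′ to 3′ on the gene's strand, from RefSeq on GRCh38.p14, and capitals mark a match of the motif on either strand. The CYP1A1 window (chr15:74725519-74725598, minus strand) holds GCGTG, the core of the element bound by AHR and ARNT, 57 bases before the start. The GCLM window (chr1:93909421-93909500, minus strand) holds TGACNNNGC, the core of the antioxidant response element bound by NRF2, on the opposite strand 34 bases before the start. The windows of PLK1 (chr16:23678819-23678898), CCNB2 (chr15:59105076-59105155), BUB1B (chr15:40160999-40161078) and CDCA8 (chr1:37692446-37692525), all on the plus strand, hold TTTGAA. The match begins 29 bases before the start of PLK1 and CCNB2 and 23 bases before that of BUB1B and CDCA8.
CYP1A1: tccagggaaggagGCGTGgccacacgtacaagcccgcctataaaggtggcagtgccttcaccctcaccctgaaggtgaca
GCLM: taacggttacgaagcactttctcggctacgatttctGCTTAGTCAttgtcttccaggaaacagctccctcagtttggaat
PLK1: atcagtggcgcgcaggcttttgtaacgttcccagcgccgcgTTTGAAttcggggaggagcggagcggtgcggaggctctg
CCNB2: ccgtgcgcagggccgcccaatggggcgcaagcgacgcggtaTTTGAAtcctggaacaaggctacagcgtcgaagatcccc
BUB1B: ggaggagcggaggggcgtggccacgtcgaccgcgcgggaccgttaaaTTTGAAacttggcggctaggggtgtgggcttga
CDCA8: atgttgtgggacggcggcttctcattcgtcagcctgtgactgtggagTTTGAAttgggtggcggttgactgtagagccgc

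Motif shares were counted over promoter windows of 250 bases before to 50 after the start, for the 10588 measured genes with a RefSeq window, on both strands. TTTGAA was found in 31 of 48 windows of the mitotic spindle and kinetochore list (64.6%), against 13.5% of all measured genes with a window, 21.3% of the lower genes and 15.7% of the higher genes. Within the last 60 bases before the start, where the 4 printed matches lie, it was found in 20 of the 48 mitotic windows (41.7%), against 2.70% of all measured genes and 0 of 36 windows of DNA replication genes. The 20 mitotic genes with such a match had log2 folds of −2.87 to −0.62 with a median of −1.89, and the 28 without had −3.71 to −0.25 with a median of −2.01, so the fold of mitotic genes was of like size with and without the letters. CCAAT was found in 81.2% of mitotic windows and 63.9% of DNA replication windows, against 42.8% of all measured. The motifs were counted separately and can overlap, since TTTGAA can share its last base with ATTGG, which is CCAAT on the other strand. GCGTG was no more frequent among the 1239 higher genes with a window (54.8%) than among all measured (57.9%), and TGACNNNGC was found in 19.5% and 19.6%. By list, GCGTG was found in 9 of 12 AHR pathway windows and TGACNNNGC in 7 of 16 windows of the glutathione and cystine list (43.8%). A match describes letters in a window and is not a binding site.

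In the S1650b library, 1782 genes were higher than in the control (12.3% of genes measured) and 1137 were lower (7.82%). With the libraries scaled by their total counts, which moves every log2 fold by 0.20, the numbers were 2522 and 794, so 76.1% of the called genes were higher in place of 61.0%. The higher genes were led by the AHR-driven P450 genes CYP1A1 and CYP1B1 and the cystine importer SLC7A11, and the lower genes by matrix and secretory genes such as DCN, SCGB1A1 and PIGR and by genes of chromosome segregation such as SPC24, CENPM and UBE2C. The same 2 libraries differed by gene length and base composition. With both trends removed by local regression, 1036 genes were higher (7.13% of the 14539 with known base composition) and 1070 lower (7.36%). Of the 1782 higher genes, 795 (44.6%) remained at least 2-fold higher, and of the 1137 lower genes 772 (67.9%) remained lower. None of these genes, in either direction, changed sign. They were picked for folds of 2 or more, while median log2 folds by GC content lay only between −0.43 and 0.60. A change of sign was thus unlikely from the start, and its absence is no check. Each gene's log2 fold with the trends removed is given below as its trend-adjusted log2 fold. By the 1.5-fold rule used for list members, 22.2% of all genes were higher and 19.5% lower. With trends removed the shares were 15.3% and 16.9%, and the counts of every list below are to be read beside these.

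**Figure D1:**
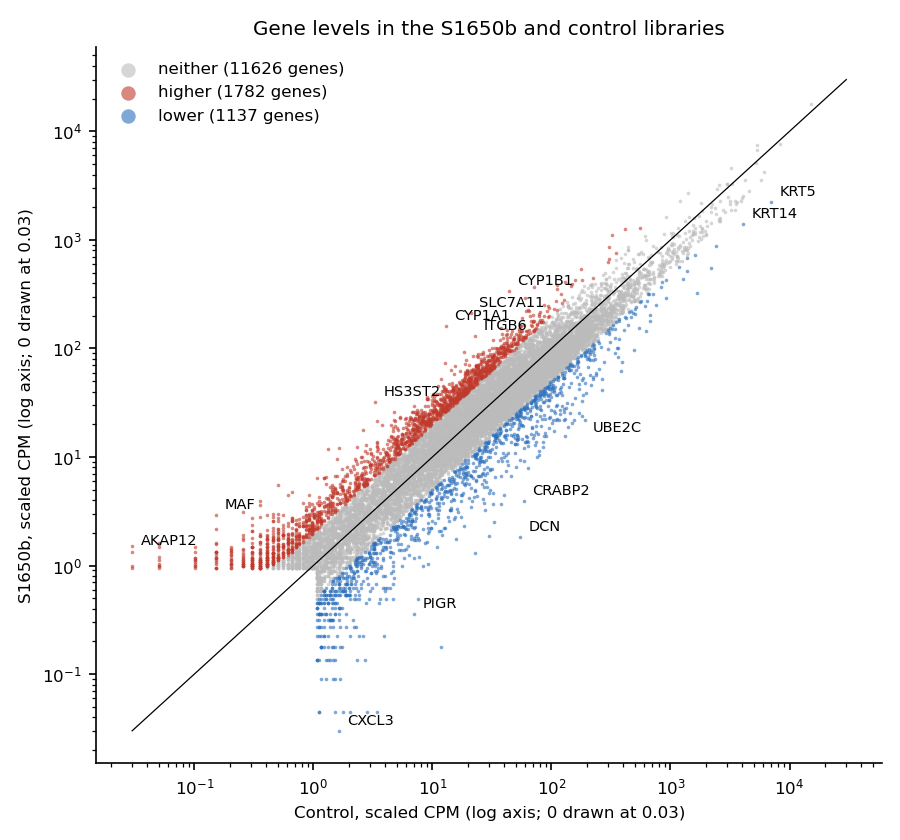
Scaled CPM of each of the 14545 genes in the control library (horizontal, log axis) and the S1650b library (vertical, log axis), 1 library each, with the line of equality. Red points are the 1782 genes counted as higher and blue points the 1137 counted as lower; CYP1A1, CYP1B1 and SLC7A11 lie far above the line, and DCN, PIGR and CRABP2 far below it.

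Xenobiotic metabolism gave the gene with the highest fold when ranked by the interval end nearest to 1. CYP1A1 had 257 counts in the control and 3564 in the S1650b library, 12.2-fold higher [10.8 to 13.9] (ENSG00000140465, chromosome 15, 74719542 to 74725610, GRCh38). In the CB library it had 11 counts. CYP1A1 oxidises polycyclic aromatic hydrocarbons and is the classical readout of AHR, and its level was highest in S1650b and lowest in CB. CYP1B1 had 860 counts in the control and 7586 in the S1650b library, 7.77-fold higher [7.24 to 8.35] (ENSG00000138061, chromosome 2, 38066973 to 38109902), and 88 counts in CB, the same order of the 3 libraries. The trend-adjusted log2 folds were 3.97 and 2.67, near the unadjusted 3.61 and 2.96. CYP1B1 also oxidises steroid hormones and is expressed in many tissues outside the liver.

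The AHR pathway list had 9 of 16 measured members higher and 2 lower by at least 1.5-fold, with a median log2 fold of 0.68, against 22.2% of all genes higher, 19.5% lower and a median of −0.04. With trends removed 7 were higher and 1 lower, against 15.3% and 16.9% of all genes, with a median of 0.49. TIPARP, an enzyme that ADP-ribosylates AHR and limits its signal, had 1368 counts in the control and 4533 in the S1650b library, 2.92-fold higher [2.75 to 3.10]. AHRR, a repressor of the receptor, had 36 and 94 counts, 2.30-fold higher [1.55 to 3.48], and NQO1, a quinone reductase shared with NRF2, 6834 and 12199 counts, 1.57-fold higher [1.53 to 1.62]. NEDD9, an adaptor of focal adhesions, had 1201 counts in the control and 3214 in the S1650b library, 2.36-fold higher [2.20 to 2.52], and ALDH1A3, an enzyme that makes retinoic acid, had 6914 and 14535 counts, 1.85-fold higher [1.80 to 1.91]. The receptor itself, AHR, had 584 and 1079 counts, 1.63-fold higher [1.47 to 1.80], yet its trend-adjusted log2 fold was 0.03. A lower member was SERPINB2, an inhibitor of plasminogen activators (1302 and 495 counts, 2.99-fold lower [2.69 to 3.32]).

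Cystine import was the step of glutathione metabolism with the largest difference. SLC7A11 had 413 counts in the control and 4708 in the S1650b library, 10.0-fold higher [9.08 to 11.1] (ENSG00000151012, chromosome 4, 138164097 to 138242349), with 887 counts in CB. SLC7A11 is the light chain of the antiporter that exchanges glutamate for cystine, and its count increased in the order control, CB, S1650b. Its antisense partner SLC7A11-AS1 had 7 and 81 counts, 10.2-fold higher [4.73 to 26.1], and its reads cannot be told apart from those of the sense gene where they overlap. GCLM and GCLC are the subunits of the enzyme that starts glutathione synthesis, and GCLM had 1030 and 2478 counts, 2.12-fold higher [1.97 to 2.28] and GCLC 1610 and 3509 counts, 1.92-fold higher [1.81 to 2.04]. ABCC3, an exporter of glutathione and glucuronide conjugates, had 2654 counts in the control and 6007 in the S1650b library, 1.99-fold higher [1.90 to 2.09]. Among the lower members, GPX2, an epithelial glutathione peroxidase, had 4635 and 2909 counts, 1.81-fold lower [1.73 to 1.90], MGST2, a microsomal glutathione transferase, had 1381 and 736 counts, 2.13-fold lower [1.95 to 2.33] and GGT1, which breaks down glutathione outside the cell, had 373 and 159 counts, 2.66-fold lower [2.21 to 3.23]. CHAC1, which breaks it down inside the cell, was higher (28 and 56 counts, 1.76-fold higher [1.10 to 2.88]). In all, 8 of 22 members of the glutathione and cystine list were higher and 5 lower, with a median of −0.09, and with trends removed 5 were higher and 3 lower, with a median of 0.24. Neither GCLM nor GCLC passed 1.5-fold with trends removed (log2 0.56 and 0.49).

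Of 21 genes of thioredoxin reduction and NADPH supply 4 were higher and 5 lower, close to the 22.2% and 19.5% of all genes. With trends removed 6 were higher and 2 lower, against 15.3% and 16.9% of all genes. Single members were farther from the control. TXNRD1, the thioredoxin reductase of the cytosol, had 6359 counts in the control and 24646 in the S1650b library, 3.41-fold higher [3.32 to 3.51]. ME1, the malic enzyme that yields NADPH, had 464 and 1002 counts, 1.90-fold higher [1.7 to 2.13], and SRXN1, sulfiredoxin, 320 and 585 counts, 1.61-fold higher [1.40 to 1.85]. The peroxiredoxins PRDX2 (4823 and 2807 counts, 1.95-fold lower [1.86 to 2.04]), PRDX4 (946 and 624 counts, 1.72-fold lower [1.55 to 1.91]), PRDX5 (16847 and 11274 counts, 1.7-fold lower [1.66 to 1.74]) and PRDX6 (6086 and 4515 counts, 1.53-fold lower [1.47 to 1.59]) were lower, and of these only PRDX6 stayed past 1.5-fold with trends removed, at a log2 fold of −0.61.

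Among 10 measured regulators of NRF2, 4 were higher and 1 lower, against 22.2% and 19.5% of all genes. With trends removed the numbers were again 4 and 1, against 15.3% and 16.9% of all genes. NFE2L2, the gene of NRF2 itself, had 995 counts in the control and 2066 in the S1650b library, 1.83-fold higher [1.69 to 1.97]. SQSTM1, which encodes p62, an autophagy receptor that binds KEAP1, had 11994 counts in the control and 24119 in the S1650b library, 1.77-fold higher [1.73 to 1.81]. KEAP1 had 2761 and 2457 counts, 1.28-fold lower [1.21 to 1.35], short of the 1.5-fold rule. BACH1, a repressor that acts at the same antioxidant elements, had 189 counts in the control and 605 in the S1650b library, 2.82-fold higher [2.39 to 3.34], so the activator and a repressor were both higher. The lower member was RBX1, the RING subunit of the ligase (1782 and 1111 counts, 1.82-fold lower [1.69 to 1.96]). CUL3, the ubiquitin ligase scaffold that works with KEAP1, had 611 and 1144 counts, 1.65-fold higher [1.49 to 1.82], but its trend-adjusted log2 fold was −0.14. The iron genes TFRC, the transferrin receptor (2946 and 8823 counts, 2.64-fold higher [2.53 to 2.75]), and FTL, the ferritin light chain (12144 and 22496 counts, 1.63-fold higher [1.60 to 1.67]), had trend-adjusted log2 folds of 0.85 and 1.13, but the heme and iron list did not lean higher, with 3 of 18 members higher, 3 lower and a median of 0.02. HMOX1, heme oxygenase, had 18 and 27 counts and a fold of 1.32 [0.701 to 2.55], which was not a detectable difference at this depth. Of 13 measured metallothionein and zinc transport genes, 4 transporters were higher and 3 genes lower (MT1E, MT1F and MT1X), and with trends removed 0 passed in either direction.

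Immediate early transcription factors were higher in part. Of the subunits of AP-1, JUN had 912 and 3266 counts, 3.15-fold higher [2.93 to 3.4], FOSB 234 and 1159 counts, 4.36-fold higher [3.79 to 5.04] and FOSL1 1013 and 2066 counts, 1.80-fold higher [1.67 to 1.94]. ATF3, a stress-induced transcription factor, had 468 counts in the control and 1917 in the S1650b library, 3.61-fold higher [3.26 to 4.0]. In the CB library JUN had 2684 counts, FOSB 734, ATF3 751 and FOSL1 4101, so for FOSL1 the CB level was above that of S1650b. The list had 8 of 23 members higher and 2 lower, against 22.2% and 19.5% of all genes. With trends removed 10 were higher and 0 lower, against 15.3% and 16.9% of all genes. BTG2 (2843 and 1868 counts, 1.73-fold lower [1.63 to 1.83]) and KLF4 (672 and 453 counts, 1.68-fold lower [1.49 to 1.90]) were the lower members, and neither passed once the trends were removed.

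Among genes of adhesion and matrix, the integrin list leaned higher, while collagens did not lean either way and matrix proteases leaned lower. Collagens had 4 of 20 higher and 4 lower, close to the 22.2% and 19.5% of all genes. Matrix proteases with plasminogen genes had 6 of 30 higher and 13 lower, with a median of −0.40. ITGB6, the beta subunit that pairs with ITGAV to bind latent TGF-beta, had 448 counts in the control and 2878 in the S1650b library, 5.66-fold higher [5.12 to 6.26] (ENSG00000115221, chromosome 2, 160099666 to 160200313). ITGAV itself had 2176 and 8655 counts, 3.50-fold higher [3.34 to 3.67]. ITGA2, the alpha chain of a collagen receptor, had 1170 counts in the control and 6547 in the S1650b library, 4.93-fold higher [4.63 to 5.25]. ITGA2 and ITGAV had 1156 and 1997 counts in CB, close to the control. Of 18 measured integrin and adhesion complex genes, 9 were higher and 0 lower, with a median log2 fold of 0.62, and with trends removed 6 were higher and 0 lower, with a median of 0.47. ITGB8, which also activates TGF-beta, had 453 and 1551 counts, 3.02-fold higher [2.71 to 3.36], and FERMT2, kindlin-2, 136 and 378 counts, 2.45-fold higher [2.01 to 3.0].

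Within TGF-beta and activin signalling, 12 of 36 members were higher and 8 lower, against 22.2% and 19.5% of all genes, with a median log2 fold of 0.20. With trends removed 9 were higher and 9 lower, against 15.3% and 16.9% of all genes, with a median of −0.13. The list as a whole thus kept no direction once the trends were removed. Higher members included the ligands INHBA (43 and 172 counts, 3.52-fold higher [2.51 to 5.04]) and TGFB2 (220 and 451 counts, 1.81-fold higher [1.53 to 2.13]), the receptors TGFBR1 (528 and 1207 counts, 2.01-fold higher [1.82 to 2.23]) and BMPR2 (462 and 1538 counts, 2.93-fold higher [2.64 to 3.26]) and the inhibitors SKIL (359 and 2093 counts, 5.13-fold higher [4.59 to 5.76]) and SMAD7 (295 and 584 counts, 1.74-fold higher [1.51 to 2.01]), both known to be induced by TGF-beta. PMEPA1, another TGF-beta target that limits the signal, had 1407 and 8221 counts, 5.15-fold higher [4.86 to 5.45] and ranked among the 10 highest with trends removed. Lower members included, on the BMP side, the target genes ID1 (7120 and 2251 counts, 3.59-fold lower [3.43 to 3.77]), ID2 (151 and 38 counts, 4.51-fold lower [3.14 to 6.62]) and ID3 (4362 and 1207 counts, 4.10-fold lower [3.85 to 4.38]), the ligands BMP4 (452 and 226 counts, 2.27-fold lower [1.93 to 2.68]) and BMP7 (105 and 43 counts, 2.77-fold lower [1.93 to 4.05]) and SMAD6 (312 and 235 counts, 1.51-fold lower [1.27 to 1.79]). FST, follistatin, which traps activin, had 931 and 347 counts, 3.05-fold lower [2.69 to 3.46], but 3369 counts in CB. The ID genes had fewer counts in CB than in the control as well, at 3235, 65 and 1744.

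**Figure D2:**
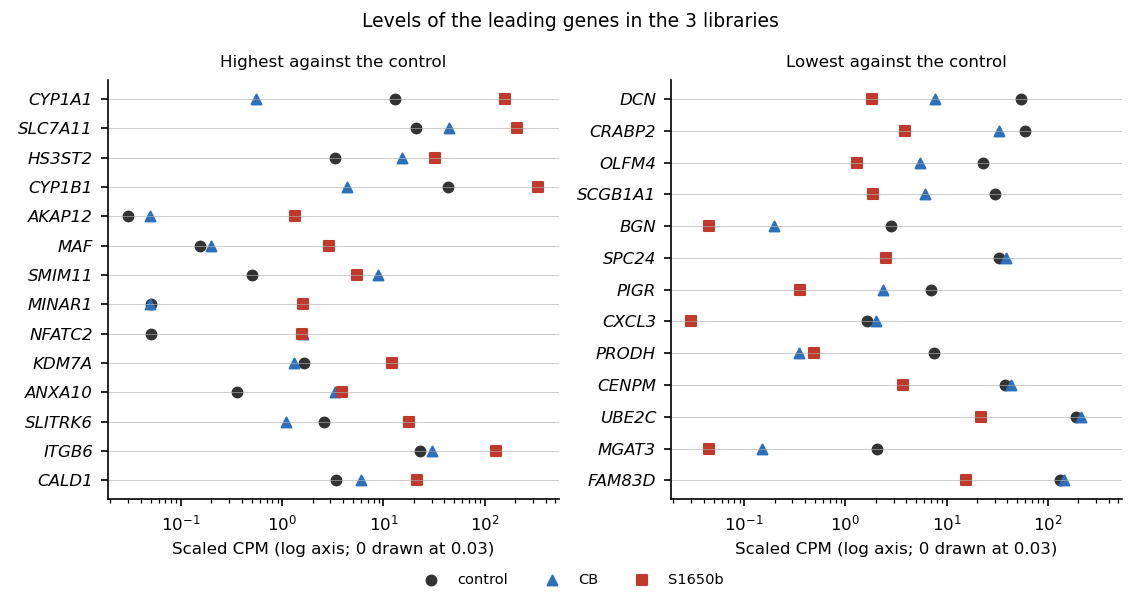
Scaled CPM (log axis, 0 drawn at 0.03) in the control, CB and S1650b libraries, 1 library each, for genes ranked highest and lowest by the interval end nearest to a fold of 1. CYP1A1 and CYP1B1 were lowest in CB and highest in S1650b, while DCN, OLFM4, SCGB1A1 and PIGR fell from the control to CB to S1650b.

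Other genes at the top of the ranking were of low level in the control. HS3ST2, a heparan sulfate sulfotransferase, had 65 counts in the control and 716 in the S1650b library, 9.70-fold higher [7.52 to 12.7], with 308 counts in CB. AKAP12, a scaffold for protein kinases, had 0, 1 and 30 counts in control, CB and S1650b, at least 8.81-fold higher when the 0 is replaced by its limit of 3 counts. MAF, a transcription factor of the large Maf group, had 3 and 65 counts, 19.1-fold higher [6.25 to 94.9], and NFATC2, a calcium-regulated transcription factor, had 1 and 35 counts, 30.8-fold higher [5.18 to 1252] with 32 counts in CB. The demethylase gene KDM7A had 32 and 271 counts, 7.46-fold higher [5.16 to 11.1], SLITRK6 51 and 400 counts, 6.91-fold higher [5.15 to 9.44], and CALD1, which encodes the actin-binding protein caldesmon, 67 and 484 counts, 6.36-fold higher [4.92 to 8.34]. MINAR1 had 1 and 36 counts, 31.7-fold higher [5.34 to 1287], and ANXA10, an annexin, 7 and 88 counts, 11.1-fold higher [5.15 to 28.3] with 67 counts in CB. SMIM11 has a near-identical copy, and the copies summed had 10, 179 and 122 counts in control, CB and S1650b, 10.7-fold higher [5.65 to 23.0], so that pair was higher still in CB. For HS3ST2, NFATC2 and ANXA10 the CB library also lay above the control, while MAF, KDM7A, SLITRK6 and MINAR1 had 4, 26, 22 and 1 counts in CB, near or below the control.

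The lowest genes included matrix and secretory genes that are not typical of keratinocytes. DCN, which encodes decorin, a proteoglycan of connective tissue, had 1067 counts in the control and 41 in the S1650b library, 29.6-fold lower [21.6 to 41.4], with 153 in CB (ENSG00000011465, chromosome 12, 91140484 to 91183123). BGN, the related proteoglycan biglycan, had 56 counts in the control and 1 in the S1650b library, 63.6-fold lower [11 to 2556]. COL3A1, a fibrillar collagen, had 638 counts in the control and 83 in the S1650b library, 8.73-fold lower [6.94 to 11.1]. The airway and gut epithelial genes SCGB1A1 (588 and 42 counts, 15.9-fold lower [11.6 to 22.3]), PIGR (139 and 8 counts, 19.7-fold lower [9.74 to 46.6]), OLFM4 (450 and 29 counts, 17.6-fold lower [12.1 to 26.6]) and AGR2 (311 and 39 counts, 9.06-fold lower [6.48 to 13]) were lower too. For each of these 7 genes the count in CB lay between those of the control and S1650b. CB had 4 counts of BGN, 339 of COL3A1, 123 of SCGB1A1, 47 of PIGR, 111 of OLFM4 and 65 of AGR2. The summed fibroblast markers (93.4, 30.6 and 13.2 CPM in control, CB and S1650b) are no separate measure. In the control they came mostly from DCN and COL3A1, which are among these genes. Of the other fibroblast markers, COL1A1 had 120, 106 and 156 counts in the same order, LUM 9, 3 and 6, and VIM 4, 5 and 8. A further 3 of the 8 fibroblast markers were at 0 counts in the control. The part of RNA from other cells in these differences was not tested. In bulk RNA fewer cells of a type and less RNA per cell cannot be told apart.

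Retinoic acid genes were prominent among the lower ones. CRABP2, which carries retinoic acid to its nuclear receptors and is itself induced by it, had 1163 counts in the control and 87 in the S1650b library, 15.2-fold lower [12.2 to 19.1], with 670 counts in CB (ENSG00000143320, chromosome 1, 156699606 to 156705816). PLAAT4, a retinoid-induced gene, had 1245 and 310 counts, 4.56-fold lower [4.02 to 5.18]. DHRS9, a retinol dehydrogenase, had 87 and 30 counts, 3.29-fold lower [2.15 to 5.17]. RXRA, the partner of the retinoic acid receptors, had 13018 and 7903 counts, 1.87-fold lower [1.82 to 1.92]. ALDH1A1, which makes retinoic acid, had 53 and 3 counts, 20.1-fold lower [6.50 to 100], whereas ALDH1A3, which makes it too, was 1.85-fold higher. The list had 7 of 18 members lower and 2 higher, and with trends removed 6 lower and 2 higher. MGAT3, which adds the bisecting sugar to N-glycans, had 40 and 1 counts, 45.4-fold lower [7.70 to 1838], and PRODH, proline dehydrogenase, had 148 and 11 counts, 15.3-fold lower [8.29 to 31.3] with 7 counts in CB.

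Genes of chromosome segregation were lower throughout. Of 56 members of the mitotic spindle and kinetochore list, 55 were lower by at least 1.5-fold and 0 higher, with a median log2 fold of −2.00 and a range of −3.71 to −0.25, and with trends removed all 56 were lower, with a median of −1.93. SPC24, a kinetochore subunit, had 652 counts in the control and 56 in the S1650b library, 13.2-fold lower [10.1 to 17.7], with 777 counts in CB. CENPM, a centromere protein, had 746 counts in the control and 82 in the S1650b library, 10.3-fold lower [8.22 to 13.1]. UBE2C, the enzyme that passes ubiquitin to mitotic cyclins, had 3758 counts in the control and 492 in the S1650b library, 8.67-fold lower [7.89 to 9.55] (ENSG00000175063, chromosome 20, 45812576 to 45816957). Of the genes whose promoters are printed above, PLK1, a kinase of mitotic entry, had 2707 and 420 counts, 7.32-fold lower [6.60 to 8.13], and CCNB2, a mitotic cyclin, 2089 and 573 counts, 4.14-fold lower [3.77 to 4.55]. CDCA8, a subunit of the chromosomal passenger complex, had 1684 and 274 counts, 6.98-fold lower [6.14 to 7.96], and BUB1B, of the spindle checkpoint, 497 and 291 counts, 1.94-fold lower [1.67 to 2.25]. In CB these genes had 3513, 2276, 2030 and 586 counts, each above the control. FAM83D, a spindle protein outside the list, had 2576 and 350 counts, 8.36-fold lower [7.47 to 9.37].

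Replication genes and the supply of nucleotides were lower as well. DNA replication had 37 of 43 members lower and 2 higher, with a median of −1.45, and with trends removed 37 lower and 0 higher. CDC45 and MCM5, both parts of the replicative helicase, had 1466 and 309 counts, 5.39-fold lower [4.76 to 6.11], and 4431 and 1159 counts, 4.34-fold lower [4.07 to 4.64]. CDT1, which loads the helicase, had 1972 and 456 counts, 4.91-fold lower [4.43 to 5.45]. Among the 27 genes of nucleotide supply 14 were lower and 1 higher, and with trends removed 16 lower and 1 higher. TK1, thymidine kinase, had 7561 and 1376 counts, 6.24-fold lower [5.89 to 6.61]. RRM2, the S-phase subunit of ribonucleotide reductase, had 1405 and 359 counts, 4.44-fold lower [3.95 to 5.00]. TYMS, thymidylate synthase, had 567 and 159 counts, 4.05-fold lower [3.39 to 4.86], and DUT, which clears dUTP, 3417 and 1297 counts, 2.99-fold lower [2.81 to 3.19]. Among G1 regulators, 13 of 28 were lower and 4 higher, and with trends removed 10 lower and 2 higher. E2F2 had 531 and 85 counts, 7.09-fold lower [5.63 to 9.03] and CDK4 4489 and 1948 counts, 2.62-fold lower [2.48 to 2.76], while CDK6 had 838 and 2617 counts, 2.75-fold higher [2.54 to 2.98] and the inhibitor CDKN1A 1314 and 4030 counts, 2.70-fold higher [2.54 to 2.88].

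Chromosome structure genes went both ways as counted, but leaned lower with trends removed. Condensin subunits, which compact mitotic chromosomes, were lower: NCAPH had 1184 and 304 counts, 4.42-fold lower [3.90 to 5.03], NCAPD2 6112 and 2543 counts, 2.73-fold lower [2.61 to 2.86] and NCAPG2 1452 and 656 counts, 2.51-fold lower [2.29 to 2.76]. CDCA5, sororin, which protects cohesion after replication, had 3525 and 532 counts, 7.52-fold lower [6.87 to 8.26]. The cohesin subunit STAG1 (485 and 1086 counts, 1.97-fold higher [1.77 to 2.20]), the loader NIPBL (425 and 1264 counts, 2.62-fold higher [2.34 to 2.93]), the release factor WAPL (550 and 1422 counts, 2.28-fold higher [2.06 to 2.52]) and SMC5 (539 and 1500 counts, 2.45-fold higher [2.22 to 2.71]) were higher, although the trend-adjusted log2 fold of NIPBL was 0.53. The combined list had 8 of 21 members higher and 7 lower, against 22.2% and 19.5% of all genes. With trends removed 2 were higher and 9 lower, against 15.3% and 16.9% of all genes. Histone genes divided too. Of 9 variant histones 7 were lower and 0 higher, including CENPA, the centromeric histone (1081 and 209 counts, 5.87-fold lower [5.06 to 6.84]), H2AX (7191 and 1847 counts, 4.42-fold lower [4.20 to 4.66]) and H2AZ1 (7237 and 2749 counts, 2.99-fold lower [2.86 to 3.12]). Of 13 replication-dependent histones 5 were higher and 1 lower, led by H2BC26 (74 and 442 counts, 5.26-fold higher [4.10 to 6.82]), and with trends removed again 5 and 1. Histone genes of a class are near-identical in sequence, so the copy that the reads came from is uncertain.

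Homologous recombination genes, which act on replication forks and breaks, had 14 of 27 members lower and 1 higher, and with trends removed 19 lower and 0 higher, with medians of −0.72 and −0.91. RAD54L, a motor protein that acts in recombination, had 447 and 111 counts, 4.57-fold lower [3.71 to 5.68]. FANCA, of the Fanconi core complex, had 1131 and 432 counts, 2.97-fold lower [2.66 to 3.33]. BRCA2 had 151 and 102 counts, 1.68-fold lower [1.30 to 2.18] and a trend-adjusted log2 fold of −1.64, so that removal of the trends made the difference larger. The damage kinases and mediators had 9 of 20 higher and 5 lower, but 3 higher and 4 lower with trends removed, which is close to the 15.3% and 16.9% of all genes. ATM had 510 and 1128 counts, 1.95-fold higher [1.75 to 2.17] and ATR 476 and 1136 counts, 2.10-fold higher [1.89 to 2.34], with trend-adjusted log2 folds of 0.03 and 0.23. CHEK1 (742 and 449 counts, 1.88-fold lower [1.67 to 2.11]) and CHEK2 (669 and 307 counts, 2.47-fold lower [2.16 to 2.84]) were lower. Of 29 genes of the BCL2 family and death receptors 4 were higher and 11 lower, against 22.2% and 19.5% of all genes, with a median of −0.01. With trends removed 1 was higher and 5 lower, against 15.3% and 16.9% of all genes. The highest member as counted was BMF, a pro-apoptotic BCL2 relative, with 169 and 657 counts, 3.42-fold higher [2.89 to 4.08], and 29 counts in CB.

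Motor proteins went both ways. Of 28 measured kinesins 12 were lower and 10 higher, against 19.5% and 22.2% of all genes. With trends removed 12 were lower and 9 higher, against 16.9% and 15.3% of all genes. The lower ones included the mitotic motors KIF20A (2164 and 487 counts, 5.05-fold lower [4.57 to 5.58]), KIF2C (2072 and 389 counts, 6.05-fold lower [5.42 to 6.76]) and KIF18B (1536 and 234 counts, 7.45-fold lower [6.49 to 8.59]). The higher ones included motors of organelle transport, KIF5B (808 and 2148 counts, 2.34-fold higher [2.16 to 2.54]), KIF3A (228 and 767 counts, 2.96-fold higher [2.55 to 3.45]) and KIF1B (395 and 1143 counts, 2.55-fold higher [2.27 to 2.86]). Of 13 tubulins, the subunits of microtubules, 7 were lower, among them TUBA1B (12212 and 3210 counts, 4.32-fold lower [4.15 to 4.49]) and TUBB (17909 and 6553 counts, 3.10-fold lower [3.02 to 3.19]), and 1 was higher, TUBB3 (8 and 39 counts, 4.29-fold higher [1.98 to 10.6]). With trends removed 5 were lower and 1 higher.

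Interferon-stimulated genes were lower for most members. Of 35 interferon-stimulated genes 19 were lower and 2 higher, with a median of −0.63, and with trends removed 16 were lower and 0 higher. OASL and OAS3, of the oligoadenylate synthetase family, had 2518 and 574 counts, 4.98-fold lower [4.55 to 5.46], and 3620 and 1185 counts, 3.47-fold lower [3.25 to 3.71]. IFITM1, which blocks viral entry, had 2061 and 597 counts, 3.92-fold lower [3.58 to 4.30], and ISG15, a ubiquitin-like modifier, 1584 and 653 counts, 2.75-fold lower [2.51 to 3.02]. In CB OASL, OAS3, IFITM1 and ISG15 had 1147, 3509, 1286 and 1152 counts, each between the control and S1650b. The 2 higher members, SAMD9 (836 and 2044 counts, 2.15-fold higher [1.99 to 2.34]) and RIGI (202 and 353 counts, 1.54-fold higher [1.29 to 1.84]), did not pass with trends removed. Antigen presentation had 9 of 18 members lower and 2 higher, and with trends removed 5 lower and 1 higher. The inducible proteasome subunits PSMB8 (3971 and 1863 counts, 2.42-fold lower [2.29 to 2.56]), PSMB9 (4335 and 2357 counts, 2.09-fold lower [1.99 to 2.20]) and PSMB10 (1730 and 909 counts, 2.16-fold lower [1.99 to 2.34]) were lower, as were HLA-B (9875 and 6274 counts, 1.79-fold lower [1.73 to 1.85]) and HLA-F (829 and 458 counts, 2.06-fold lower [1.83 to 2.31]), whose reads are shared with related HLA genes.

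Chemokines and cytokines were more often lower than higher. CXCL3, a neutrophil chemokine, had 32, 40 and 0 counts in control, CB and S1650b, at least 12.1-fold lower when the 0 is replaced by its limit of 3 counts. CXCL1 and CXCL8, which draw neutrophils, had 197 and 57 counts, 3.92-fold lower [2.91 to 5.37], and 177 and 105 counts, 1.91-fold lower [1.5 to 2.46]. CCL5, which draws T cells, had 852 and 190 counts, 5.09-fold lower [4.35 to 5.99]. In CB, CXCL1 had 376 and CXCL8 558 counts, above the control, where S1650b lay below it. IL1B (903 and 1746 counts, 1.7-fold higher [1.57 to 1.85]) and IL1A (187 and 427 counts, 2.01-fold higher [1.69 to 2.40]) were higher, as were the receptor chains IL6ST (645 and 1648 counts, 2.25-fold higher [2.05 to 2.47]) and OSMR (1044 and 2093 counts, 1.77-fold higher [1.64 to 1.90]). The list had 13 of 28 members lower and 5 higher, against 19.5% and 22.2% of all genes. With trends removed 12 were lower and 2, IL1A and IL1B, higher, against 16.9% and 15.3% of all genes. TNFAIP2, an NF-kB target of high level, had 27097 and 11446 counts, 2.69-fold lower [2.63 to 2.75] with 12053 counts in CB. It was the lowest member of the list of NF-kB subunits and inhibitors. That list had 4 of 22 members higher and 4 lower, against 22.2% and 19.5% of all genes, and with trends removed 2 and 1.

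Keratins were lower for most members. Of 18 measured keratins 11 were lower and 2 higher, and with trends removed 10 lower and 4 higher. The basal pair KRT5 and KRT14 had 137862 and 49645 counts, 3.15-fold lower [3.12 to 3.19], and 80055 and 31282 counts, 2.91-fold lower [2.87 to 2.94]. The pair of mucosal epithelia, KRT13 and KRT4, had 32809 and 7212 counts, 5.17-fold lower [5.04 to 5.30], and 9752 and 2159 counts, 5.13-fold lower [4.90 to 5.38]. KRT7, a keratin of simple epithelia, had 27496 counts in the control and 60610 in the S1650b library, 1.94-fold higher [1.91 to 1.97]. On the length-normalised scale the deposited FPKM of KRT5 was 1621 in the control and 513 in S1650b, and that of KRT7 was 339 and 657, so KRT7 lay below KRT5 in the control and above it in S1650b. In CB the FPKM values were 1438 and 469. KRT8 and KRT18, also of simple epithelia, had 20411 and 17404 counts, 1.33-fold lower [1.31 to 1.36], and 5787 and 4579 counts, 1.44-fold lower [1.38 to 1.49], both short of the 1.5-fold rule. KRT6A and KRT6B share sequence, and with their counts summed they had 4962 in the control and 1450 in S1650b, 3.89-fold lower [3.66 to 4.12].

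Secreted defence and protease genes were mostly lower. S100A8 (137 and 26 counts, 5.98-fold lower [3.91 to 9.48]) and S100A9 (743 and 148 counts, 5.70-fold lower [4.77 to 6.85]), the calprotectin pair, and LCN2, an iron-binding lipocalin (10775 and 3420 counts, 3.58-fold lower [3.44 to 3.72]), were lower, and RNASE7, an antimicrobial ribonuclease, was higher (33 and 119 counts, 3.18-fold higher [2.14 to 4.82]). The S100 and antimicrobial list had 10 of 16 members lower and 1 higher, and with trends removed 6 lower and 1 higher. The protease inhibitors PI3 (182 and 23 counts, 8.99-fold lower [5.81 to 14.5]) and SLPI (315 and 74 counts, 4.83-fold lower [3.74 to 6.31]) and the kallikrein KLK11 (364 and 52 counts, 7.95-fold lower [5.93 to 10.8]) were lower, while SERPINB13, an inhibitor of cathepsins, was higher (6025 and 14805 counts, 2.16-fold higher [2.10 to 2.23]). In the matrix protease list 13 of 30 were lower and 6 higher, and with trends removed 11 lower and 3 higher. MMP7, matrilysin, had 852 and 242 counts, 4.0-fold lower [3.46 to 4.63], and SPARC, a collagen-binding matrix protein, 60 and 19 counts, 3.59-fold lower [2.11 to 6.36], while THBS1, thrombospondin, had 8578 and 18143 counts, 1.86-fold higher [1.82 to 1.91]. IGFBP3, which binds insulin-like growth factors, had 43238 and 12212 counts, 4.02-fold lower [3.94 to 4.10], with 29925 in CB.

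Junction lists had members on both sides: tight junctions had 5 of 22 members higher and 3 lower, adherens junctions 4 of 18 and 3, and desmosomes 4 of 11 and 2, against 22.2% and 19.5% of all genes. TJP1 (820 and 2998 counts, 3.22-fold higher [2.98 to 3.48]) and PATJ (626 and 2261 counts, 3.18-fold higher [2.91 to 3.48]), scaffolds of tight junctions, were higher, and CLDN1 (24985 and 16766 counts, 1.69-fold lower [1.66 to 1.73]) and CLDN7 (6947 and 5100 counts, 1.55-fold lower [1.49 to 1.60]) lower. In desmosomes DSG2 (2383 and 7121 counts, 2.63-fold higher [2.51 to 2.76]) and DSP (4329 and 8809 counts, 1.79-fold higher [1.73 to 1.86]) were higher, and PKP1 (13135 and 8711 counts, 1.71-fold lower [1.67 to 1.76]) and PKP3 (9105 and 5957 counts, 1.74-fold lower [1.68 to 1.79]) lower; once trends were removed 1 of 11 desmosome genes, DSG2, was higher and 0 lower. Notch genes had 10 of 22 members lower and 3 higher, and with trends removed 8 lower and 2 higher. The receptor NOTCH3 had 92 and 20 counts, 5.22-fold lower [3.19 to 8.95] with 21 counts in CB, NOTCH1 6113 and 3446 counts, 2.01-fold lower [1.93 to 2.10], and the target genes NRARP 894 and 310 counts, 3.27-fold lower [2.87 to 3.74] and HES1 1633 and 902 counts, 2.06-fold lower [1.89 to 2.23]. These 4 genes stayed lower with trends removed, at log2 folds of −2.30, −1.01, −1.23 and −0.79.

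Nuclear genes of mitochondrial respiration were lower across complexes, while mitochondrially encoded genes were not lower as a group. Complex I had 24 of 37 members lower and 0 higher (20 and 0 with trends removed), complex III with cytochrome c 7 of 11, complex IV 10 of 11 and ATP synthase 15 of 18, each with 0 higher. With trends removed the numbers lower were 7, 9 and 12. With libraries scaled by total counts, the median log2 folds of complex I and ATP synthase were −0.54 and −0.47, in place of −0.74 and −0.67. NDUFV1 of complex I had 8159 and 4334 counts, 2.14-fold lower [2.06 to 2.22], COX5B of complex IV 5891 and 3392 counts, 1.97-fold lower [1.89 to 2.06], and ATP5F1B of ATP synthase 26956 and 15211 counts, 2.01-fold lower [1.97 to 2.05]. Of the 13 mitochondrially encoded proteins 0 passed in either direction, with log2 folds from −0.53 for MT-CO3 to 0.51 for MT-ND4, and with trends removed 1, MT-ND3, was lower. The mitochondrial share of counts was 4.92% in the control and 6.0% in S1650b. The citric acid cycle had 12 of 22 members lower and 0 higher, mitochondrial import 10 of 20 and 0, and mitochondrial ribosomal proteins 36 of 77 and 0. With trends removed these counts were 10 and 0, 8 and 1, and 28 and 1. The median log2 fold of mitochondrial ribosomal proteins was −0.56, and −0.36 with total-count scaling. SDHA, of complex II, had 7858 and 4875 counts, 1.83-fold lower [1.77 to 1.90] and TOMM40, the import channel, 3788 and 1921 counts, 2.24-fold lower [2.12 to 2.37]. Of 28 cholesterol genes 6 were higher and 2 lower, and with trends removed 4 and 1, so that the share higher was close to that of all genes (22.2%, and 15.3% with trends removed). Fatty acid synthesis had 5 of 19 higher and 1 lower, and with trends removed 3 and 1. SREBF1, a transcription factor of lipid synthesis, had 23203 and 12553 counts, 2.10-fold lower [2.05 to 2.15]. PHGDH, the entry to serine synthesis, had 4430 and 1764 counts, 2.85-fold lower [2.70 to 3.02], and 6247 counts in CB. It was the lowest member of the amino acid response list. That list had 6 of 25 members higher and 6 lower, against 22.2% and 19.5% of all genes, and with trends removed 6 and 3.

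**Figure D3:**
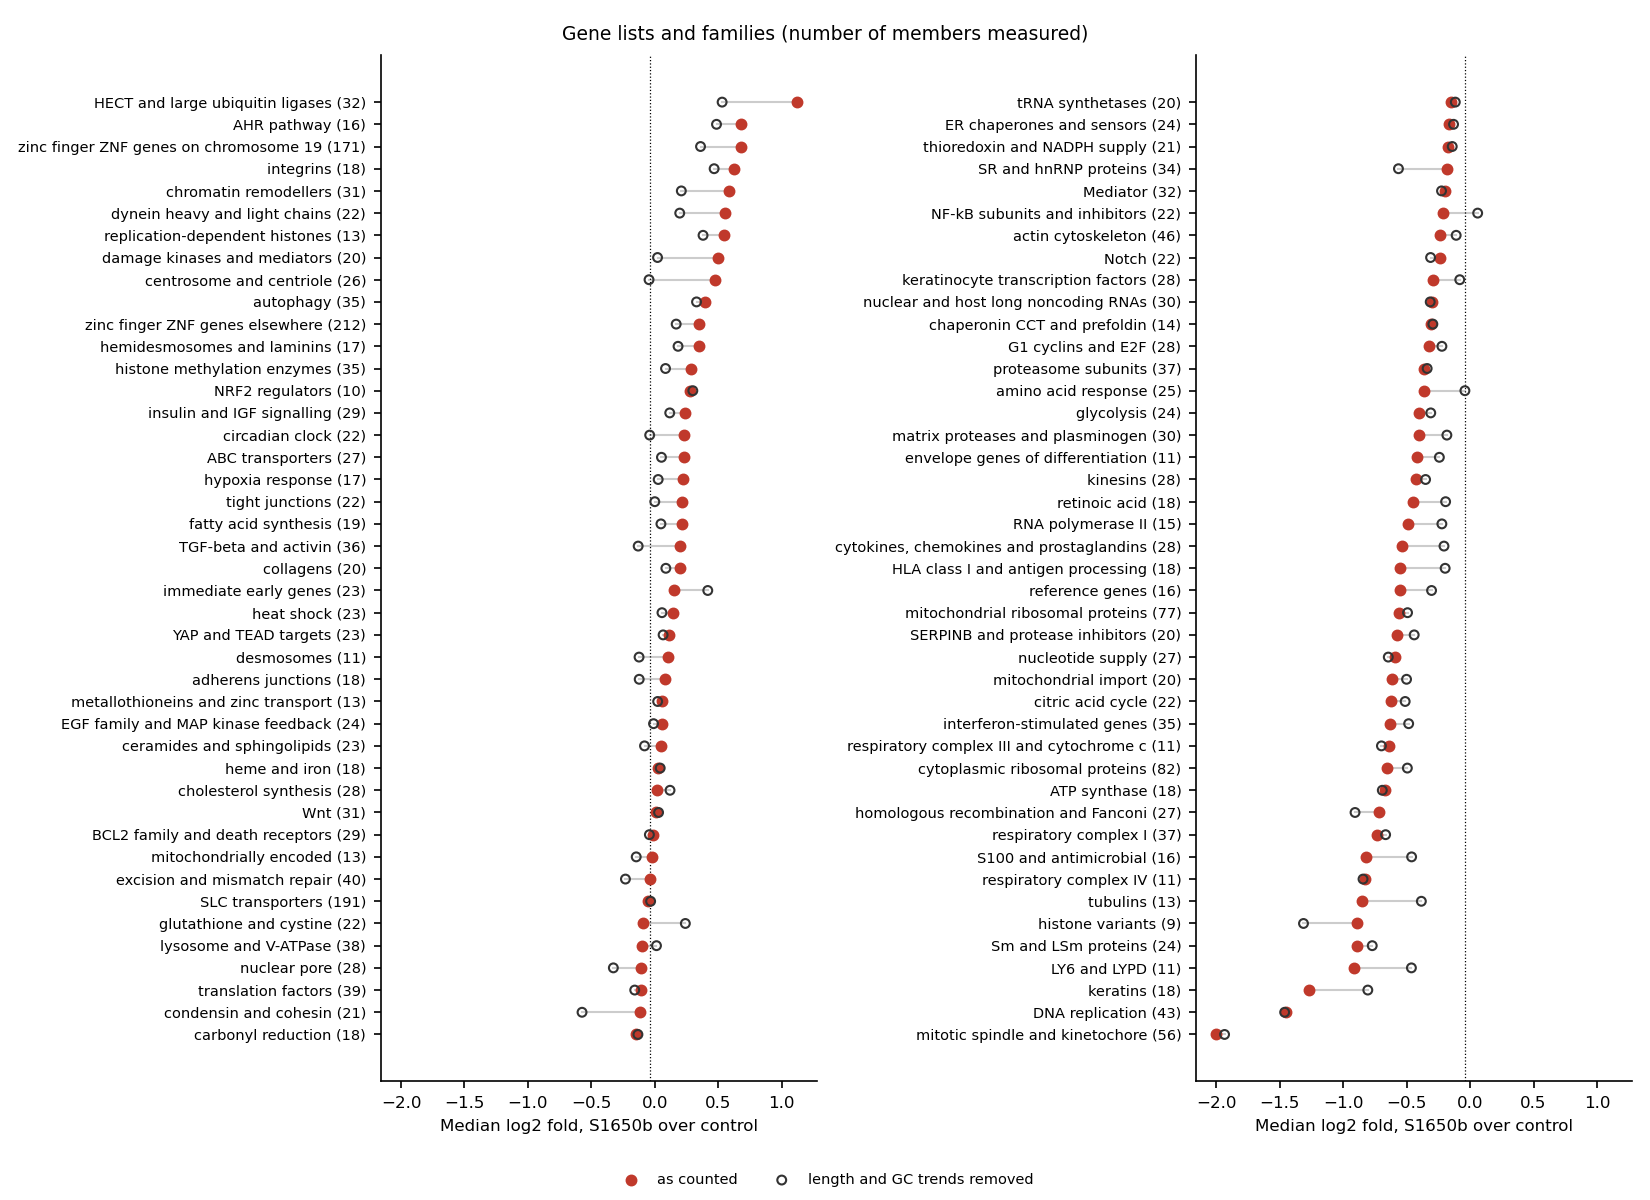
Median log2 fold of S1650b over control for gene lists and families, with the number of members measured in brackets; filled points are values as counted, open points have length and GC trends removed, and the dotted line is the median of all genes (−0.04). Mitotic, replication and spliceosomal lists stayed low on both scales, while the centrosome list moved from 0.48 to −0.046.

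Small proteins of the spliceosome and ribosomal proteins were lower, while translation factors and tRNA synthetases did not lean either way. Of 24 Sm and LSm proteins 18 were lower and 0 higher, with a median of −0.89, and with trends removed 17 were lower, with a median of −0.77. LSM3, of the U6 particle, had 1486 and 638 counts, 2.64-fold lower [2.41 to 2.91]. SNRPA, of the U1 particle, had 1977 and 913 counts, 2.46-fold lower [2.27 to 2.66], and SNRPG, of the Sm ring, 2908 and 1531 counts, 2.16-fold lower [2.03 to 2.30]. The SR and hnRNP splicing regulators had 5 of 34 higher and 8 lower, close to the share of all genes, but 0 higher and 16 lower with trends removed. HNRNPC had 16966 and 11258 counts, 1.71-fold lower [1.67 to 1.75] and a trend-adjusted log2 fold of −1.38. Cytoplasmic ribosomal proteins had 52 of 82 lower and 0 higher, with a median of −0.65 (−0.45 with total-count scaling), and 30 lower with trends removed. Their many pseudogenes share sequence with them. Translation factors had 5 of 39 higher and 6 lower, with a median of −0.11, and tRNA synthetases 3 of 20 and 3. Reference genes often used for normalisation were lower in 8 of 16 and higher in 2, and with trends removed in 5 and 1. GAPDH had 51574 and 35661 counts, 1.64-fold lower [1.62 to 1.66] and a trend-adjusted log2 fold of −0.22. Of 30 nuclear and small-RNA host noncoding RNAs 7 were higher, among them the nuclear transcripts MALAT1 (2172 and 7962 counts, 3.23-fold higher [3.08 to 3.39]) and KCNQ1OT1 (49 and 221 counts, 3.97-fold higher [2.90 to 5.53]), and 9 were lower, among them SNHG29 (17589 and 11689 counts, 1.71-fold lower [1.67 to 1.75]). With trends removed 5 were higher and 7 lower. The shares of all genes were 22.2% and 19.5% as counted, and 15.3% and 16.9% with trends removed.

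Families of long genes were higher as counted. Of 32 HECT and other large ubiquitin ligases and proteases 23 were higher and 0 lower, with a median log2 fold of 1.12, and with trends removed 15 were higher and 0 lower, with a median of 0.53. ITCH, a HECT ligase, had 1113 counts in the control and 4281 in the S1650b library, 3.39-fold higher [3.17 to 3.62], and its trend-adjusted log2 fold was 1.2. Chromatin remodellers had 15 of 31 higher and 3 lower, but 5 higher and 3 lower with trends removed. Histone methylation enzymes had 14 of 35 higher, such as KDM5A (334 and 1387 counts, 3.66-fold higher [3.24 to 4.13]), and 3 lower, such as SUV39H1 (396 and 93 counts, 4.84-fold lower [3.85 to 6.13]), with 4 in each direction once trends were removed. Centrosome genes had 11 of 26 higher and 4 lower with a median of 0.48, and 3 higher and 5 lower with a median of −0.046 when the trends were removed, so the direction of this list turned. Autophagy genes kept their direction: 13 of 35 were higher and 0 lower, and with trends removed 11 higher and 1 lower, among them WIPI1 (18 and 84 counts, 4.11-fold higher [2.45 to 7.27]), GABARAPL1 (2140 and 4131 counts, 1.7-fold higher [1.61 to 1.79]) and ULK1 (831 and 1576 counts, 1.67-fold higher [1.53 to 1.82]).

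Zinc finger genes with the symbol ZNF were higher on chromosome 19, where they lie in clusters, and to a smaller extent elsewhere. On chromosome 19, 91 of 171 were higher and 15 lower, with a median of 0.68, and with trends removed 64 were higher and 7 lower, with a median of 0.36. On other chromosomes 80 of 212 were higher and 17 lower, with medians of 0.35 and 0.17. Genes of chromosome 19 as a whole had a median log2 fold of −0.34, the lowest of the nuclear chromosomes, and −0.05 with trends removed. Chromosome 13 had the highest, 0.33, and −0.02 with trends removed. The zinc finger genes of chromosome 19 thus stood on the opposite side of 0 from the median of their chromosome.

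Gene length and base composition were checked across all measured genes. The median log2 fold went from −0.27 in the 10% of genes with the shortest exon length (summed over a gene's exons) to 0.53 in the 10% with the longest, a difference of 0.80. It went from 0.60 in the 10% with the lowest GC content to −0.43 in the 10% with the highest, a difference of −1.02. Spearman's rho across 14539 genes was 0.30 with exon length and −0.44 with GC content, as a description, since genes are not independent replicates and long genes tend to be of low GC content (rho −0.25). The CB library, compared with the same control, gave 0.06 and −0.11. Restricted to genes of at least 10 CPM the rho values in S1650b were 0.45 and −0.53. The length trend depended on the low genes left out: with all genes of at least 1 count kept, the difference between the 10% longest and the 10% shortest was −0.16. Higher genes had a median exon length of 6710 bases and 41.8% GC, lower genes 3140 bases and 54.1%, and genes counted as neither 4563 bases and 49.4%.

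**Figure D4:**
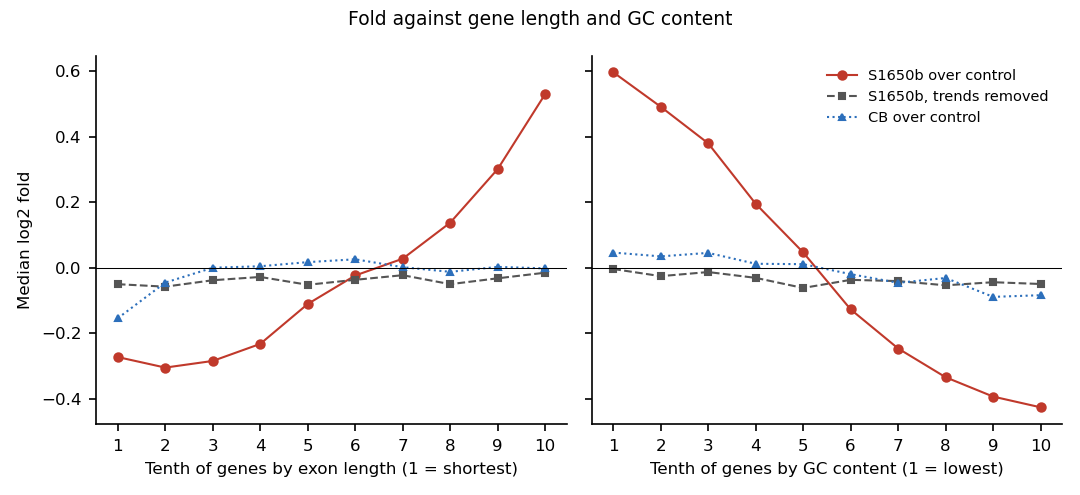
Median log2 fold in 10 equal groups of genes ordered by exon length (left) and by GC content (right), for S1650b over control as counted and with trends removed and for CB over the same control, 1 library each. The S1650b medians climb from −0.27 to 0.53 with length and fall from 0.60 to −0.43 with GC content, and lie near −0.04 with trends removed.

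Length and GC content each went with the fold when the other was held. With genes cut into 5 equal groups by each property, those of the lowest GC group had a median log2 fold of 0.11 when shortest and 0.88 when longest, and those of the highest GC group −0.46 and −0.26. Genes both long and of low GC content were at least 2-fold higher in 42.3% of cases, against 12.3% of all genes, and those long but of high GC content in 2.36%. Leading genes fell on both sides of these trends: CYP1A1 and HS3ST2 had larger log2 folds with trends removed (3.97 and 3.77), and SLC7A11 a smaller one (2.52). RNA quality and library preparation were not measured here, and their part in the trends was not tested.

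**Figure D5:**
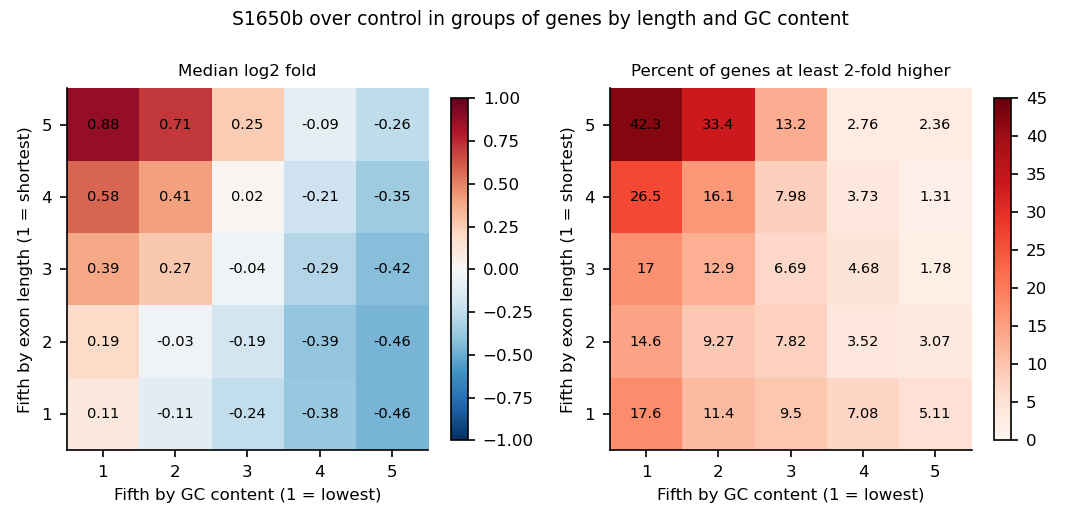
Genes divided into 5 equal groups by exon length (vertical) and, independently, 5 by GC content (horizontal), with the median log2 fold of S1650b over control (left) and the percent of genes at least 2-fold higher (right) written in each square. The square of the longest genes with the lowest GC content holds 0.88 and 42.3%.

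Noncoding genes differed from protein-coding ones. The median log2 fold was 0.29 in 504 lincRNA genes, 0.21 in 738 antisense genes and −0.07 in 12163 protein-coding genes, and −0.38 in 349 processed pseudogenes, whose reads may belong to their parent genes. With trends removed the medians were 0.31, 0.33, −0.07 and −0.24. Across all genes the fold also fell with mean CPM (rho −0.19, and −0.24 with length and GC trends removed). That trend was not removed, and its part in the difference between gene types was not tested. The lincRNA ENSG00000260604 had 26 and 265 counts, 8.98-fold higher [5.99 to 14], with 8 in CB. The lincRNA TIAM1-AS1 had 29 and 2 counts, 16.5-fold lower [4.17 to 142], with 50 in CB, and KRT16P6, a pseudogene of KRT16, had 70 and 10 counts, 7.95-fold lower [4.08 to 17.3]. With CPM taken from total counts, 923 genes were below 1 CPM in the control and at or above it in S1650b, and 382 the reverse. Relative to the scaling used for the folds, total counts move every log2 fold upward by 0.20. The crossings were not counted on the scale of the folds. Only 4 measured genes had 0 counts in the control and 1, CXCL3, had 0 in S1650b.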

How the data were processed

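RNA was extracted with Trizol and sequenced from libraries made with a NEBNext Ultra RNA kit, per the labels' protocols. The authors deposited gene counts and FPKM values (fragments scaled to gene length and library size) for 58735 Ensembl gene IDs in 3 HaCaT cultures, 1 library each, per the file headers. CASAVA 1.7 and the mouse builds mm8 and mm9 are named in the submitters' processing notes, and those builds do not match human gene IDs. The aligner, the counter, its strand setting and the human build were "not given in the sources used here". Symbols, gene types and coordinates came from GENCODE release 29 (GRCh38), where all 58735 IDs matched, and promoter sequences from RefSeq (GRCh38.p14).

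Counts were scaled with TMM factors over the 3 libraries (edgeR 4.0.16), which gave effective library sizes of 19673034 for the control, 20102846 for CB and 22339647 for S1650b. Intervals are exact conditional binomial (Clopper-Pearson, 95%). Before log2, 0.5 counts were added, and the floor for a count of 0 was 3 counts. Length and GC trends were removed by lowess with a span of 30% of genes, in 3 rounds (statsmodels 0.14.6). The calculation was tested on simulated data, in which counts were drawn with counting error only. Variation between cultures and copies made by PCR were not simulated, so the test does not cover those limits. No p-value was computed, since there is 1 library a group.

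Named genes were the 15 highest and 15 lowest protein-coding genes ranked by the interval end nearest to 1, the 10 in each direction after trend removal, the 5 noncoding genes in each direction, genes at 0 counts in 1 library, and members shown to describe a list. List members were taken by that ranking or, after their values were seen, for their role. A few of the genes picked are left unreported here. The comparison and the 87 gene lists and families were chosen with earlier results of these data known. Alternatives changed the scaling, the filter, the counts added, the unit (FPKM with 0.1 added), the gene types, the trends, the mitochondrial genes and the fold.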

Additional observations from a re-analysis of the deposited data

How the results depend on the processing

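The numbers of higher and lower genes (1782 and 1137) were 1178 and 757 with a filter of 5 CPM, 3231 and 2836 at a fold of 1.5, and 486 and 446 at a fold of 3, where fewer genes are tested or the fold differs by construction. With the GC trend removed 1105 genes were higher, and with both trends removed 1036. The difference between the 10% longest and the 10% shortest genes (0.80) was 1.09 with a filter of 5 CPM, 1.07 in protein-coding genes and 0.55 with the GC trend removed. It was −0.16, the opposite sign, without a filter beyond 1 count, and the cause was not tested. The difference between the 10% of genes with the highest and the 10% with the lowest GC content (−1.02) was −0.80 with the length trend removed. The median of the centrosome and centriole list was −0.046 and the log2 fold of CUL3 −0.14 with both trends removed. No other named gene past 1.5-fold changed sign under an alternative that was run. The medians of 31 of 87 lists crossed 0 under some alternative, and except for the centrosome list these were medians no farther than 0.24 from 0. Relative to TMM over 3 libraries, every log2 fold moved by 0.20 with total counts, 0.03 with median-of-ratios factors, 0.06 with the upper quartile and 0.05 with TMM over 2 libraries. No paired analysis was possible because each group has 1 library, and no library could be left out. Genes of a few counts have wide intervals, and variation between cultures could not be measured at any depth.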
